A study of Mus musculus with 6 samples.

Results

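The 9 genes described here form the Indian hedgehog and PTHrP loop of the growth plate. They are the ligand genes Ihh and Pthlh, the receptor genes Pth1r, Ptch1 and Smo, the transcription factor genes Gli1, Gli2 and Gli3, and Hhip, whose product binds hedgehog ligands. They were taken by name, and all 9 were found by gene identifier among the 23733 genes of the deposited table and passed the filter that left 18126 genes for testing. RNA came from whole pulverized femurs of 5-week-old mice, with 1 library per mouse. The 3 Mutant mice carried the m*Ifitm5* allele (*Ifitm5* with the osteogenesis imperfecta type V mutation, heterozygous in the *Rosa26* locus) and *Acan-Cre* ERT2, a tamoxifen-inducible Cre driven by the aggrecan promoter of cartilage cells. Tamoxifen was given at 10 mg/kg per dose from P10, with P15 as the last day in the series description, so that the allele was switched on after birth and in chondrocytes. The 3 Control mice are described only as controls, and whether they carried Cre or the knockin allele alone, and whether they received tamoxifen, is not stated for these libraries. Since the allele is active in cartilage and the RNA is from the whole bone, the libraries also hold RNA of bone, marrow and attached muscle.

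In the growth plate, prehypertrophic chondrocytes secrete Indian hedgehog, which binds Patched 1 on neighboring cells and releases Smoothened from its block. Smoothened then turns the Gli factors toward activation, and cells that respond make more *Ptch1*, *Gli1* and *Hhip* mRNA, so these transcripts serve as readouts of the signal and, through Patched 1 and Hhip, also as brakes on it. Indian hedgehog also keeps up production of PTHrP by resting chondrocytes near the joint surface, and PTHrP acts on the receptor Pth1r to hold proliferating chondrocytes back from hypertrophy. Pth1r is not confined to cartilage, as osteoblasts express it strongly and respond through it to parathyroid hormone.

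The DNA site that ties Gli factors to their targets can be read in the promoter of *Ptch1*, and it is shown because *Ptch1* is the readout followed below. The letters GACCACCCA, a Gli binding motif, were searched on both strands from 250 bases before to 50 bases after the start of each gene's canonical transcript in GENCODE on GRCm39. For *Ptch1* that start is 63714092 on chromosome 13, and the outermost start annotated for the gene, 63721412, lies 7320 bases farther upstream, so the window is inside the gene's outer bounds. The match lies on the strand opposite to the gene and therefore reads TGGGTGGTC here, its first base 165 bases before the canonical start (chr13:63714241-63714265, gene on the minus strand), with the motif in capitals.
Ptch1 promoter: tgcctaccTGGGTGGTCtctctact
Of 21770 protein-coding promoters of the same length, 44 (0.202%) held the motif. The other 8 promoters of the loop held no match to these letters or to the looser form GACCNCCCA, which 1.05% of all promoters held and which matched *Ptch1* at the same place.

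The femur libraries showed the tissues that the label implies. Totals ranged from 11473467 to 17058572 counts. Levels are given as CPM, counts scaled to library size with the trimmed-mean (TMM) factors of edgeR. All 12 chondrocyte markers had a positive log2 fold change (Mutant over Control), with a summed level of 2050 to 6290 CPM in Mutant and 1470 to 1870 CPM in Control femurs. All 10 osteoblast markers had a negative one, although that of *Bglap2* rounded to 0 and that of *Bglap* was -0.18. Their sums were 60700 to 111000 CPM in Mutant and 121000 to 175000 CPM in Control femurs. Most of these sums came from *Col1a1* and *Col1a2*. *Col1a1* averaged 59500 CPM in Mutant and 96000 CPM in Control femurs, and *Col1a2* 26700 CPM in Mutant and 41300 CPM in Control femurs. Sums over 9 erythroid markers were 1660 to 10800 CPM in Mutant and 636 to 1840 CPM in Control femurs, those over 7 neutrophil markers 955 to 1670 CPM in Mutant and 263 to 537 CPM in Control femurs, and those over 7 muscle markers 1880 to 12100 CPM in Mutant and 1050 to 8730 CPM in Control femurs. No marker of these lists was at 0 in any library. *Ifitm5* itself, on which reads of the knockin and the endogenous gene are both counted, was at 23.4 to 36.7 CPM in Mutant and 31.3 to 47.6 CPM in Control femurs.

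Both ligand genes were higher in every Mutant femur than in any Control femur, while the receptor gene *Pth1r* had a lower mean and the ranges of the hedgehog readouts *Ptch1*, *Gli1* and *Hhip* overlapped between the groups. By edgeR's quasi-likelihood test, 0 of the 9 genes passed an adjusted p of 0.05, as did 0% of all genes tested. At an unadjusted p under 0.05 there were 3 of the 9, where 8.56% of all genes were, with 2 of the 9 higher (*Ihh* and *Pthlh*, 5.06% of all genes) and 1 lower (*Pth1r*, 3.49% of all genes). DESeq2 also called 0 of the 9, where it called 0.613% of all genes. With a replicate block (mice paired by label number), edgeR called 0 of the 9, where it called 3.32% of all genes. No source ties the label numbers to litters, so the pairs named below are pairs by label only. The 2 ligand genes were also those of which all Mutant values lay above all Control values, as was the case for 6.54% of all genes, and 0 of the 9 had all Mutant values below, as did 6.67% of all genes. The median log2 fold change of the 9 was 0.07, against 0.00 over all genes tested. In bulk tissue, fewer cells of a type and less RNA per cell cannot be told apart.

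*Ihh*, the hedgehog ligand gene of the growth plate, lies at 74984474 to 74990837 of chromosome 1 on GRCm39. Its level was 9.89, 4.61 and 5.91 CPM in Mutant mice 1, 2 and 3, against 4.24, 3.88 and 2.10 CPM in Control mice 1, 2 and 3. These levels rest on 125, 65 and 91 counts in Mutant mice 1, 2 and 3 and on 51, 45 and 34 counts in Control mice 1, 2 and 3. The groups did not overlap, but Mutant mouse 2 stood only just above Control mouse 1. Mutant femurs averaged 6.80 ± 2.75 CPM and Control femurs 3.41 ± 1.15 CPM (SD, n = 3 each), a log2 fold change of 1.00 (standard error of the fit, SE, 0.38, adjusted p = 0.563, edgeR), and 3.73% of all genes tested had a larger one. Without Mutant mouse 1 the log2 fold change was 0.64.

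*Pthlh*, which encodes PTHrP, lies on chromosome 6 from 147153599 to 147165681. Its level was 12.0, 5.32 and 8.37 CPM in Mutant mice 1, 2 and 3, against 2.41, 4.05 and 4.87 CPM in Control mice 1, 2 and 3, from 151, 75 and 129 counts in the Mutant and 29, 47 and 79 counts in the Control libraries. As for *Ihh*, Mutant mouse 1 was highest and Mutant mouse 2 lay closest to the Control mice. It averaged 8.55 ± 3.32 CPM in Mutant and 3.78 ± 1.25 CPM in Control femurs (SD, n = 3 each), a log2 fold change of 1.17 (SE 0.37, adjusted p = 0.545, edgeR), the largest of the 9. When each library was left out in turn, the log2 fold change of *Pthlh* stayed between 0.85 and 1.41.

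**Figure D1:**
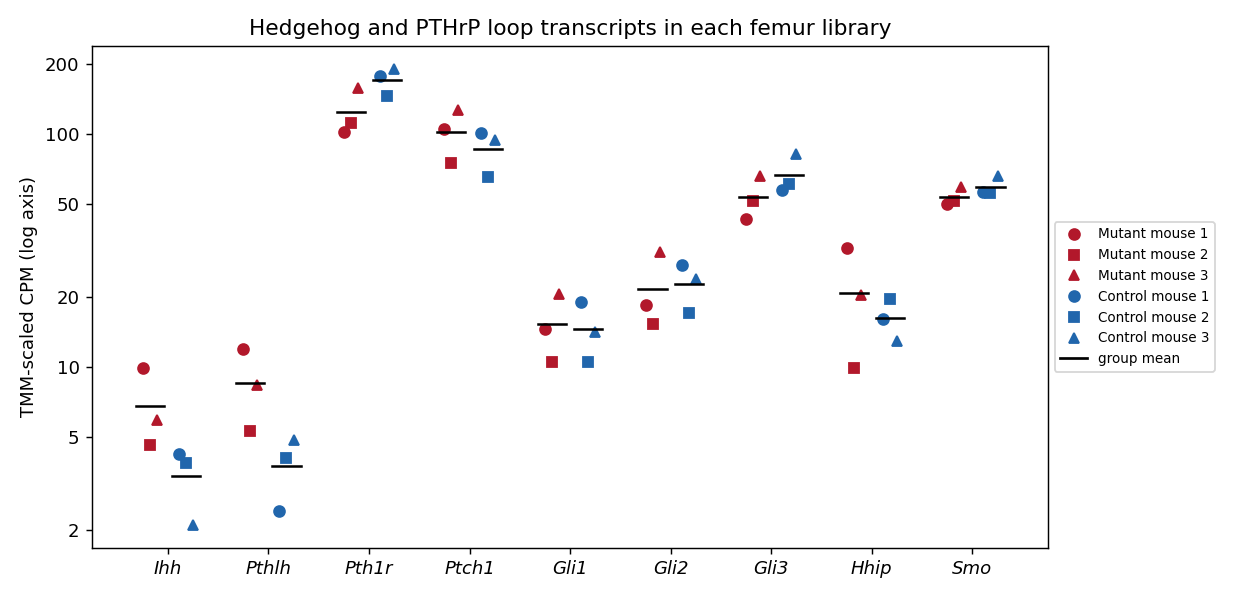
TMM-scaled CPM (log axis) of the 9 loop genes in each of the 3 Mutant (red) and 3 Control (blue) femur libraries, with symbols for the mouse number in the labels and black lines for group means. The groups separate for Ihh and Pthlh, with Mutant mouse 2 nearest to the Control mice at 4.61 and 5.32 CPM, and overlap for the other 7 genes.

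PTHrP and parathyroid hormone share the receptor Pth1r, the gene of which lies on chromosome 9 from 110550767 to 110576259. *Pth1r* was at 102, 112 and 158 CPM in Mutant mice 1, 2 and 3, against 177, 146 and 191 CPM in Control mice 1, 2 and 3. Mutant mouse 3 lay above Control mouse 2, so the groups overlapped. Mutant femurs averaged 124 ± 29.9 CPM and Control femurs 172 ± 23.1 CPM (SD, n = 3 each), a log2 fold change of -0.47 (SE 0.19, adjusted p = 0.570, edgeR). With the replicate block the standard error was 0.12 and the adjusted p 0.056 (edgeR), the lowest of the 9, and *Pth1r* was lower in the Mutant mouse of each of the 3 pairs, by log2 differences of -0.80, -0.38 and -0.27. *Pth1r* shares 95 exonic bases (1.99% of its exons) with *Myl3*, a muscle myosin gene on the other strand, which had 7 to 326 counts in the Mutant and 6 to 177 counts in the Control libraries. Among overlaps with other counted genes, *Gli1* shares 103 exonic bases (2.05%) with *Arhgap9* on the other strand. *Arhgap9* had 164 to 201 counts in the Mutant and 82 to 146 counts in the Control libraries. *Gli3* shares 5.13% of its exons with *Gm6556* on the other strand (11 to 23 counts). *Smo* shares 4.13% with *Gm13717*, a pseudogene on its own strand (2 to 20 counts). Strand use in counting was not given in the sources used here.

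*Ptch1*, the hedgehog receptor gene and readout, lies on chromosome 13 from 63656142 to 63721412. Its level was 105, 75.2 and 127 CPM in Mutant mice 1, 2 and 3 and 101, 65.2 and 94.0 CPM in Control mice 1, 2 and 3. The mouse with the label number 2 was the lowest of each group, and *Ptch1* was higher in the Mutant mouse of each of the 3 pairs, by log2 differences of 0.06, 0.21 and 0.43 (adjusted p = 0.329 in the edgeR fit with the replicate block). The log2 fold change was 0.24 (SE 0.22, adjusted p = 0.786, edgeR), and leaving out Mutant mouse 2, Mutant mouse 3 or Control mouse 2 gave 0.42, 0.05 and 0.08. *Smo*, which encodes the signal transducer Smoothened, varied least of the 9, with 49.9, 51.7 and 59.1 CPM in Mutant mice 1, 2 and 3 and 56.3, 55.9 and 66.0 CPM in Control mice 1, 2 and 3. It lies on chromosome 6 from 29735407 to 29762532. Its log2 fold change was -0.15 (SE 0.13, adjusted p = 0.775, edgeR), and 0.01 when libraries were scaled by library size alone, which moved the median of all genes to 0.16.

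*Gli1*, the transcript of which depends most directly on hedgehog signaling among the Gli genes, was at 14.6, 10.5 and 20.6 CPM in Mutant mice 1, 2 and 3 and at 19.1, 10.5 and 14.1 CPM in Control mice 1, 2 and 3. *Gli1* lies on chromosome 10 from 127165751 to 127177865. The ranges covered each other almost completely, and the log2 fold change was 0.07 (SE 0.29, adjusted p = 0.963, edgeR), with -0.22 without Mutant mouse 3. *Gli2*, the main activator of the family, was at 18.4, 15.3 and 31.1 CPM in Mutant mice 1, 2 and 3 and at 27.3, 17.1 and 23.8 CPM in Control mice 1, 2 and 3. *Gli2* lies on chromosome 1 from 118761858 to 118982598, and its log2 fold change was -0.07 (SE 0.28, adjusted p = 0.957, edgeR), or 0.09 with library size alone. *Ptch1*, *Gli1* and *Gli2* were each highest in Mutant mouse 3 and had their lowest values in the mice numbered 2, of either group.

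*Gli3*, which in the absence of signal is cut to a repressor, is on chromosome 13 from 15637809 to 15904611. Levels of *Gli3* were 43.1, 51.9 and 65.9 CPM in Mutant mice 1, 2 and 3, against 57.7, 61.0 and 82.5 CPM in Control mice 1, 2 and 3. The groups overlapped through Mutant mouse 3, and *Gli3* was lower in the Mutant mouse of each of the 3 pairs, by log2 differences of -0.42, -0.23 and -0.32. The log2 fold change was -0.32 (SE 0.20, adjusted p = 0.665, edgeR), with an adjusted p of 0.152 in the edgeR fit with the replicate block. Leaving out Mutant mouse 1, Mutant mouse 3 or Control mouse 3 gave log2 fold changes of -0.19, -0.50 and -0.14. *Gli3* and *Smo* were both highest in Control mouse 3 and second highest in Mutant mouse 3. Both were lowest in Mutant mouse 1, where the sum of the osteoblast markers was also lowest (60700 CPM). The part of osteoblast RNA in their levels was not tested.

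*Hhip*, which encodes a membrane protein that binds hedgehog ligands and dampens signaling, lies at 80692480 to 80784658 of chromosome 8. Its level was 32.3, 9.93 and 20.4 CPM in Mutant mice 1, 2 and 3 and at 16.1, 19.5 and 12.9 CPM in Control mice 1, 2 and 3. Mutant mice 1 and 3 lay above all Control mice and Mutant mouse 2 below them all. The Mutant values had an SD of 11.2 CPM, against 3.31 CPM in Control femurs. The log2 fold change was 0.37 (SE 0.39, adjusted p = 0.810, edgeR), with 0.70 without Mutant mouse 2 and -0.08 without Mutant mouse 1.

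**Figure D2:**
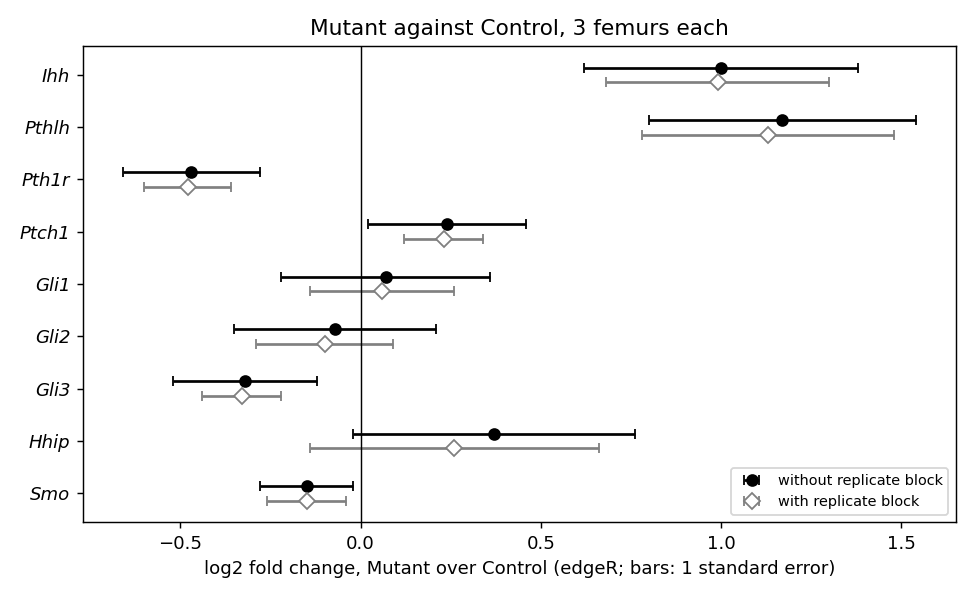
Log2 fold change of each loop gene, Mutant over Control (3 femurs each, edgeR), as filled circles without and open diamonds with the replicate number as a block, with bars of 1 standard error. Ihh (1.00) and Pthlh (1.17) lie farthest above 0 and Pth1r (-0.47) farthest below it, and none passed an adjusted p of 0.05 in either fit.

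Compared per length of exon (CPM per kilobase), *Pth1r* was by far the most abundant of the 9, at 26.0 ± 6.27 in Mutant and 35.9 ± 4.85 in Control femurs (SD, n = 3 each). In Control femurs, *Smo* (6.73), *Gli3* (6.70) and *Ptch1* (5.88 CPM per kilobase) followed with overlapping ranges, and then, below a gap, *Gli1* (2.91), *Gli2* (2.82), *Pthlh* (2.09), *Hhip* (1.51) and *Ihh* (1.12 CPM per kilobase), each overlapping its neighbor. In Mutant femurs every neighbor in the order below *Pth1r* overlapped the next, from *Ptch1* (6.95) through *Smo* (6.06), *Gli3* (5.36), *Pthlh* (4.73), *Gli1* (3.04), *Gli2* (2.68) and *Ihh* (2.23) to *Hhip* (1.95 CPM per kilobase). In both groups, *Pthlh* was thus lower per length than *Pth1r*, the receptor gene for PTHrP, and *Ihh* was lower than *Ptch1*. These are whole-femur levels, and *Pth1r* is also expressed by osteoblasts.

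Because the chondrocyte markers differed so much between the femurs, the loop genes other than *Gli2* were also set against other transcripts of the same library, as differences of log2(CPM + 0.5). Relative to the mean of the 12 chondrocyte markers, *Ihh* had a lower mean in Mutant femurs. The log2 difference was -3.29, -3.23 and -4.44 in Mutant mice 1, 2 and 3, against -2.77, -3.05 and -3.26 in Control mice 1, 2 and 3. The group difference was -0.63 (two-sided p = 0.2 in an exact permutation test, which with 3 against 3 mice cannot go below 0.1), and -0.24 without Mutant mouse 3. The chondrocyte marker mean itself differed by 1.52 on the log2 scale between Mutant and Control femurs. For *Pthlh*, the difference from the same markers was -3.03, -3.04 and -3.97 in Mutant mice 1, 2 and 3 and -3.47, -2.99 and -2.21 in Control mice 1, 2 and 3, a group difference of -0.46 (exact permutation test, two-sided p = 0.4), and it came to -0.14 when Mutant mouse 3 was left out, to -0.12 when Control mouse 3 was, and to -0.75 when Control mouse 1 was. With the median of the markers in place of their mean it was -0.27. On this scale the groups overlapped for both ligand genes. The comparison of *Pthlh* was added after the data were seen. Both ligand transcripts were highest in Mutant mouse 1, where the erythroid (10800 CPM) and neutrophil (1670 CPM) marker sums were also highest. The chondrocyte marker sum was highest in Mutant mouse 3 (6290 CPM). The part of marrow cells in the ligand levels was not tested.

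Against *Col10a1*, the collagen gene of the hypertrophic chondrocytes that *Ihh*-expressing cells become, *Ihh* was at -4.37, -5.23 and -5.34 in Mutant mice 1, 2 and 3 and at -5.38, -5.04 and -6.37 in Control mice 1, 2 and 3 (log2 differences). The group difference was 0.62 (exact permutation test, two-sided p = 0.4), with 0.31 without Mutant mouse 1 and 0.23 without Control mouse 3. Of the 6 markers of hypertrophic chondrocytes, 3 had a positive and 3 a negative log2 fold change, and their summed level was 2620 to 4340 CPM in Mutant and 3750 to 6580 CPM in Control femurs. Most of this sum came from *Mmp13* (means of 1860 CPM in Mutant and 2640 CPM in Control femurs) and *Ibsp* (1270 CPM in Mutant and 1680 CPM in Control femurs), which osteoblasts also express, while *Col10a1* averaged 222 CPM in Mutant and 185 CPM in Control femurs, with a log2 fold change of 0.26.

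Set against *Ihh*, the 3 readouts had lower means in Mutant femurs. *Hhip* minus *Ihh* was 1.66, 1.03 and 1.70 in Mutant mice 1, 2 and 3 and 1.81, 2.19 and 2.37 in Control mice 1, 2 and 3 (log2 differences), so that the groups did not overlap. The group difference for *Hhip* was -0.66, at the smallest p that the design allows (exact permutation test, two-sided p = 0.1). For *Ptch1* it was -0.65 and for *Gli1* -0.83 (exact permutation tests, two-sided p = 0.2 for each), with overlapping groups. Without Mutant mouse 1 the value was -0.40 for *Ptch1* and -0.54 for *Gli1*, and without Control mouse 3 it was -0.31 for *Ptch1*. Each of the 3 readouts minus *Ihh* was lower in the Mutant mouse of all 3 pairs of the same label number, by -1.07, -0.02 and -0.87 for *Ptch1*, -1.51, -0.23 and -0.77 for *Gli1* and -0.15, -1.16 and -0.66 for *Hhip* in pairs 1, 2 and 3. The mean of the 3 readouts minus *Ihh* was 1.85, 2.01 and 2.58 in Mutant mice 1, 2 and 3 and 2.76, 2.48 and 3.35 in Control mice 1, 2 and 3. All these differences contain the level of *Ihh*, and so are not independent of its own group difference. Which cells of the femur the readout transcripts came from was not tested.

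Relative to the osteoblast markers, *Pth1r* hardly differed between the groups. It was at -2.63, -2.83 and -2.81 in Mutant mice 1, 2 and 3 and at -2.46, -2.76 and -2.84 in Control mice 1, 2 and 3 (log2 differences), a group difference of -0.07 (exact permutation test, two-sided p = 0.7), or 0.04 without Control mouse 1. The osteoblast marker mean differed by -0.41 on the log2 scale, and *Pth1r* itself had a log2 fold change of -0.47. No other marker list was set against *Pth1r*, and the part of osteoblast RNA in its level was not tested. The comparisons of *Gli3* and *Smo* to these markers were added after the data were seen. *Gli3* was at -3.87, -3.93 and -4.07 in Mutant mice 1, 2 and 3 and at -4.07, -4.02 and -4.05 in Control mice 1, 2 and 3. These values spanned a narrower range than those of *Pth1r*, with a group difference of 0.09 (exact permutation test, two-sided p = 0.3). The group difference for *Gli3* was 0.04 without Mutant mouse 1 and 0.15 without Mutant mouse 3. For *Smo* it was 0.27 (exact permutation test, two-sided p = 0.3), with 0.12 without Mutant mouse 1 and 0.41 without Mutant mouse 3. Adjusted over the 9 within-library comparisons of single genes, no p of the exact permutation tests was below 0.45. With 3 against 3 mice none could have fallen below 0.1, so this adjustment could not have called any of them.

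**Figure D3:**
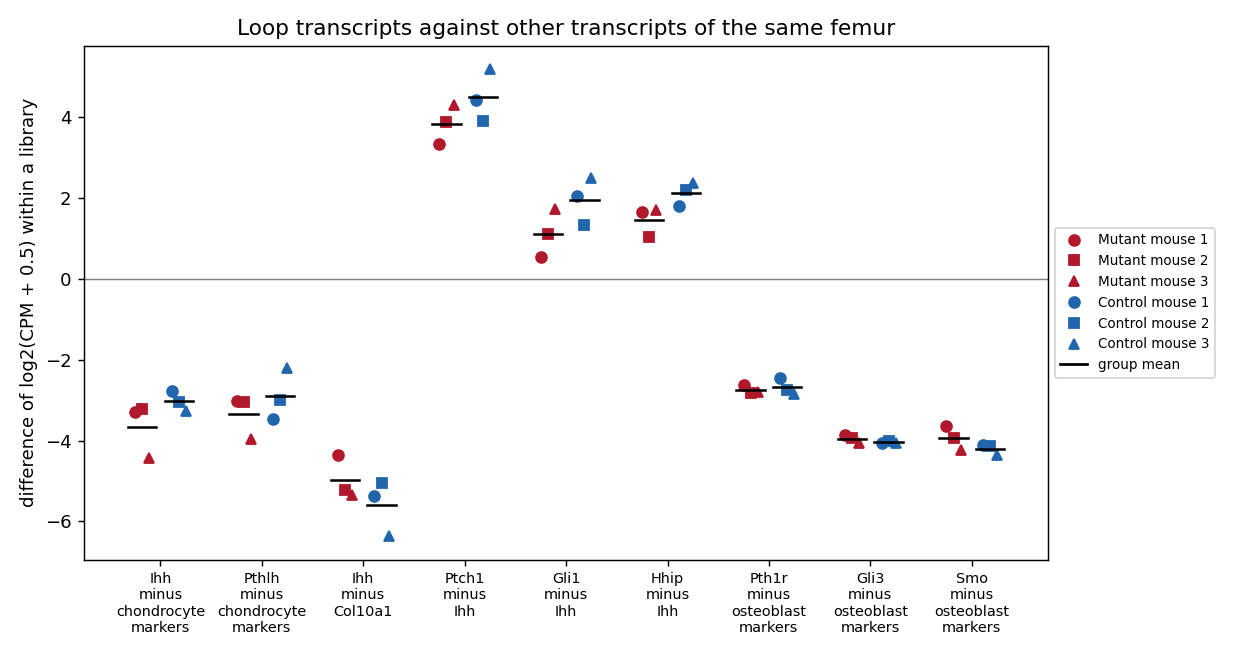
Difference of log2(CPM + 0.5) between a loop gene and other transcripts of the same library, for 3 Mutant (red) and 3 Control (blue) femurs, with black lines for group means. Hhip minus Ihh separates the groups (1.03 to 1.70 in Mutant and 1.81 to 2.37 in Control femurs). Ihh alone also separates them, and Hhip alone does not. Pth1r and Gli3 lie at nearly the same distance below the osteoblast markers in both groups. The comparisons of Pthlh, Gli3 and Smo were added after the data were seen.

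The genes with the pattern most like that of a loop gene were sought among 13681 protein-coding genes of at least 1 CPM, by Pearson correlation of log2 CPM over the 6 libraries, as a description only. For *Pth1r* these were *B4galnt3* (0.997), *Swap70* (0.997) and *Zfp157* (0.996), for *Ihh* *Etnk1* (0.990), *Serpinb10* (0.990) and *Gramd1c* (0.988), for *Pthlh* *Zfp109* (0.994), *Snw1* (0.993) and *Katnbl1* (0.992), and for *Ptch1* *Fip1l1* (0.994), *Pdcd4* (0.993) and *Trmt44* (0.983). With only 6 libraries such values are common, as 679 genes exceeded 0.9 for *Pth1r*, 317 for *Ihh*, 99 for *Pthlh* and 70 for *Ptch1*.

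Beyond the 9 genes, few genes of the wider pathways passed a test. Of 86 further genes in 9 lists, 76 were tested. By edgeR 0 were called. At an unadjusted p under 0.05, 3 of the 76 were on the higher side (5.06% of all genes) and 6 on the lower side (3.49% of all genes), and DESeq2 called 0 (0.613% of all genes). The fit with the replicate block called 2 lower (0.623% of all genes) and 0 higher (2.70% of all genes). Their median log2 fold change was -0.07, and 31 of the 76 were positive, against 50.3% of all genes tested.

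*Gas1*, the product of which presents hedgehog ligands to Patched 1, was called lower with the replicate block (adjusted p = 0.0418, edgeR) and not without it (adjusted p = 0.511, edgeR). It was at 68.7, 56.8 and 63.7 CPM in Mutant mice 1, 2 and 3, against 87.5, 104 and 84.2 CPM in Control mice 1, 2 and 3, a log2 fold change of -0.54 (SE 0.14). All Mutant values lay below all Control values. Among the 8 co-receptors and membrane regulators tested, 6 were on the negative side, with a median of -0.32 over the 8, and *Gpc3*, a glypican that competes for hedgehog ligands, had a positive one of 0.77 (SE 0.31, adjusted p = 0.570, edgeR). *Dhh*, the desert hedgehog ligand gene known from Schwann cells, was at 0.712, 0.639 and 0.779 CPM in Mutant mice 1, 2 and 3, against 2.16, 1.90 and 1.29 CPM in Control mice 1, 2 and 3. The log2 fold change of *Dhh* was -1.31 (SE 0.46, adjusted p = 0.563, edgeR), opposite in sign to *Ihh*. All 5 Schwann cell markers had a positive log2 fold change and all 5 endothelial markers a negative one. *Dhh* was low throughout, so that a stricter filter left it out, and which cells its level came from was not tested. *Scube2*, which helps to release lipid-bearing hedgehog ligands, had 0.36.

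Hedgehog targets outside the loop were on the lower side in 6 of 8 cases (median -0.36). *Foxc2*, a forkhead gene of skeletal mesenchyme, had a log2 fold change of -0.69 (SE 0.30, adjusted p = 0.578, edgeR) and *Ccnd1*, the cyclin D1 gene, of -0.30. Without Mutant mouse 2 *Foxc2* had -0.44. The 10 intracellular components were split evenly, 5 positive and 5 negative, with -0.63 for *Kif7*, a kinesin that regulates Gli proteins at the cilium, and 0.29 for *Btrc*, of the ubiquitin ligase that processes Gli proteins. Without Mutant mouse 1 these values were -0.38 for *Kif7* and 0.08 for *Btrc*. The 8 genes of the primary cilium, the organelle in which Smoothened acts, were split 4 and 4. Within the same transport machinery *Ift172* had -0.47 (SE 0.17, adjusted p = 0.563, edgeR) and *Ift80* 0.49 (SE 0.21, adjusted p = 0.573, edgeR), or 0.28 without Mutant mouse 1.

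On the PTHrP side, 18 genes of the G protein, cAMP and HDAC4 arm had a median log2 fold change of -0.03, with 0 at an unadjusted p under 0.05 (8.56% of all genes) and 2 with all Mutant values below all Control values (6.67% of all genes). The lowest p among them belonged to *Hdac5* (-0.26), a class IIa histone deacetylase, and *Pde4d* (0.43), a phosphodiesterase that breaks down cAMP, which had 0.75 when Control mouse 2 was left out and 0.25 when Control mouse 3 was. The β-arrestin gene *Arrb1*, for a protein that turns Pth1r off and internalizes it, had a log2 fold change of 0.54 (SE 0.23, adjusted p = 0.573, edgeR), and *Arrb2* had 0.36. Without Mutant mouse 1 *Arrb1* had 0.23, and *Arrb2* had 0.54 without Mutant mouse 3 and 0.23 without Control mouse 3. *Arrb1* was highest in Mutant mouse 1 at 219 CPM, where the erythroid marker sum was also highest (10800 CPM), and the part of blood cells in its level was not tested. Of the 8 PTH-responsive genes of bone, 3 were positive and 5 negative, among them *Rgs2* (0.31), a regulator of G protein signaling, and *Sost* (-0.49), the osteocyte gene for sclerostin, which parathyroid hormone represses. *Sost* had -0.87 without Mutant mouse 3.

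Of 10 tested regulators of *Ihh*, *Sp7*, the osterix gene, was called lower with the replicate block (adjusted p = 0.0384, edgeR) and not without it (adjusted p = 0.570, edgeR), with a log2 fold change of -0.49 (SE 0.20). *Runx2*, which with *Runx3* drives *Ihh* in prehypertrophic chondrocytes, had -0.27, with -0.43 without Mutant mouse 3 and -0.13 without Control mouse 3. *Sp7* and *Runx2* are also osteoblast markers, all 10 of which were on the lower side, with *Bglap2* at a log2 fold change that rounded to 0. The median of the 10 regulators was -0.01.

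**Figure D4:**
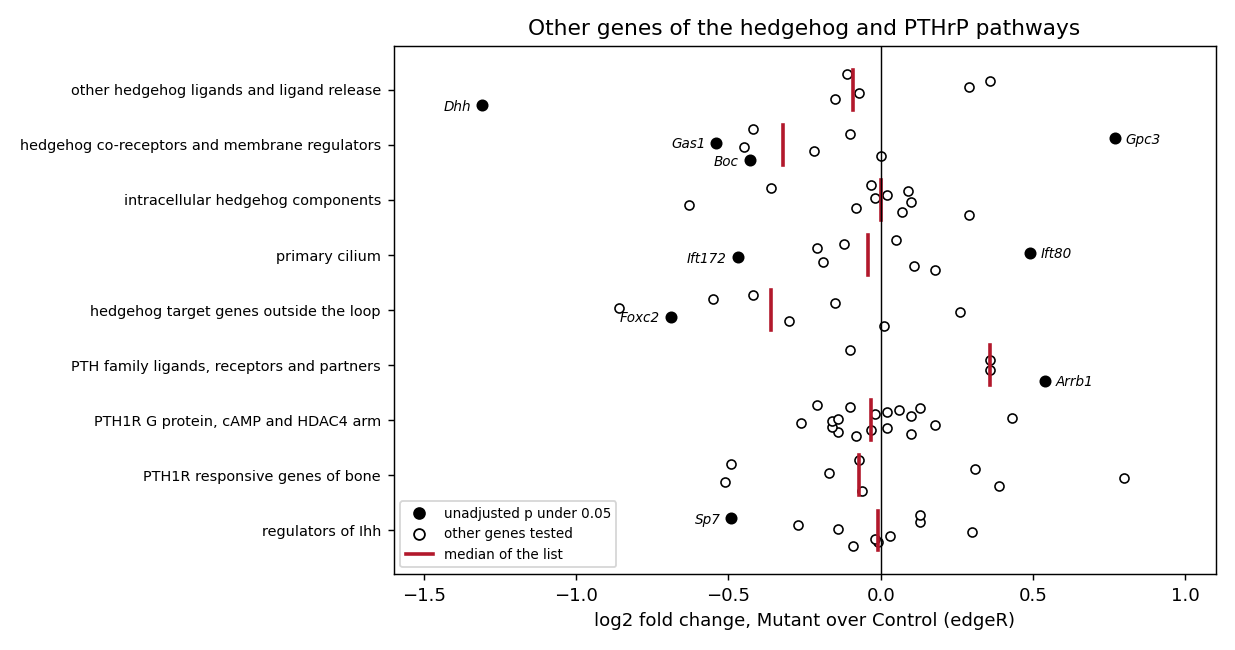
Log2 fold change (Mutant over Control, 3 femurs each, edgeR) of the tested genes of 9 hedgehog and PTHrP pathway lists, 1 point per gene, filled and named where the unadjusted p was under 0.05, with a red bar at each list's median. The medians lie between -0.36 for hedgehog targets outside the loop and 0.36 for PTH family partners, and no gene passed an adjusted p of 0.05 in this fit.

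*Pthlh* is made by resting chondrocytes, and the markers of that zone were uneven. *Ucma*, a small secreted protein of upper growth plate cartilage, was at 8.55, 2.98 and 10.4 CPM in Mutant mice 1, 2 and 3, against 1.08, 2.59 and 0.555 CPM in Control mice 1, 2 and 3. *Sfrp5*, a secreted Wnt inhibitor, was at 5.78, 1.21 and 3.44 CPM in Mutant mice 1, 2 and 3, against 1.58, 1.21 and 0.617 CPM in Control mice 1, 2 and 3. Their log2 fold changes were 2.40 (SE 0.63, adjusted p = 0.545, edgeR) and 1.62 (SE 0.61, adjusted p = 0.563, edgeR), and DESeq2 called *Ucma* (adjusted p = 0.0136) and not *Sfrp5* (adjusted p = 0.319). Of the 6 resting zone markers 5 were tested and 4 were positive, *Gas1* being the negative one, and the sum over the list was 135 to 223 CPM in Mutant and 179 to 205 CPM in Control femurs. That sum is mostly *Wif1*, a secreted Wnt inhibitor (means of 102 CPM in Mutant and 96.6 CPM in Control femurs, log2 fold change 0.07), and *Gas1*, so the other markers hardly enter it, *Clec3a* (1.54) among them. How far the ligand transcripts followed the amount of these cells was not tested beyond the within-library differences above.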

How the data were processed

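The authors extracted total RNA from pulverized femurs, depleted ribosomal RNA, sequenced read pairs, aligned them with STAR to mm39 and used Partek. The authors deposited estimated counts for each gene, without depth scaling (70.7% whole, and no gene with a sum under 10 counts). Tool versions, gene annotation and strand use are not given in the sources used here. Table columns matched the 6 libraries, and 0 belonged to other samples.

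Gene identifiers were looked up in GENCODE vM39 (GRCm39) for names, coordinates and exon lengths, with 23572 of 23733 genes found. Counts were rounded, filtered by filterByExpr (minimum 10 counts, total 15), scaled by TMM and tested by edgeR's robust quasi-likelihood test with Benjamini-Hochberg adjustment over 18126 genes. R 4.3.3, edgeR 4.0.16, limma 3.58.1, DESeq2 1.42.0, Python 3.11.15, pandas 2.3.3 and matplotlib 3.10.9 were used. The fits were tested on simulated data. Within-library differences used log2(CPM + 0.5) and an exact permutation test over mice. Those of *Pthlh* to chondrocyte and of *Gli3* and *Smo* to osteoblast markers were added after seeing the data.

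The members and lists were chosen with earlier results of these data known. Named besides the members were, per pathway list, the 2 genes with the smallest p, as none passed, and the 3 genes most correlated with *Ihh*, *Pthlh*, *Pth1r* and *Ptch1*. *Ucma* and *Sfrp5*, resting zone markers, were chosen after their values were seen. The label numbers pair the mice by the rule used here: deviations of same-numbered libraries from their group means correlated at 0.154, 0.212 and 0.465, over the limit of 0.1, although Mutant mouse 1 correlated more with Control mouse 2 (0.202), and no source ties the numbers to litters. A replicate block was therefore fitted beside the main test.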

Additional observations from a re-analysis of the deposited data

How the results depend on the processing

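The other settings were DESeq2, limma-voom with and without quality weights, median-ratio and library-size scaling, TMM leaving out the 10 most abundant genes, a stricter filter or none, non-robust estimation, a replicate block, and omission of each library in turn. In all 16, 0 of the 9 loop genes were called, and *Ihh*, *Pthlh*, *Pth1r*, *Ptch1* and *Gli3* kept their direction, at log2 fold changes of 0.64 to 1.22, 0.85 to 1.41, -0.68 to -0.31, 0.05 to 0.42 and -0.50 to -0.14. *Gli1* reversed to -0.04 with quality weights, -0.22 without Mutant mouse 3 and -0.11 without Control mouse 2. *Gli2* reversed to 0.09 with library size alone, 0.03 without Mutant mouse 1, 0.12 without Mutant mouse 2 and 0.06 without Control mouse 1. *Hhip* reversed to -0.10 with quality weights and -0.08 without Mutant mouse 1, and *Smo* to 0.01 with library size alone. Without single libraries *Gli1* ranged from -0.22 to 0.29, *Gli2* from -0.43 to 0.12 and *Hhip* from -0.08 to 0.70. The cause was not tested. Over all genes 0 were called by edgeR (1551 at an unadjusted p under 0.05), 0 by limma-voom, 120 by DESeq2, 602 with the replicate block, and 0 to 8 when a library was left out (8 without Mutant mouse 2). Of the pathway genes 2, *Gas1* and *Sp7*, were called with the block, which changed no other call among the loop and pathway genes named, and 0 when a library was left out. *Pth1r* relative to osteoblast markers ranged from -0.14 to 0.04 without single libraries, the last without Control mouse 1. *Ihh* relative to chondrocyte markers ranged from -0.84 to -0.24, to *Col10a1* from 0.23 to 0.90, and the 3 readouts relative to *Ihh* from -0.93 to -0.47. With all pairs complete, a mean within-pair difference (replicate block) must equal the difference of group means. It therefore could not change these 4 values, -0.07, -0.63, 0.62 and -0.72. With a pseudocount of 0.1 CPM they were -0.07, -0.59, 0.70 and -0.79. Counts per library were 34 to 125 for *Ihh* and 29 to 151 for *Pthlh*, a counting error of up to 17.1% and 18.6% (Poisson), where the SD between mice was 40.5% and 38.8% of the mean in Mutant and 33.7% and 33.1% in Control femurs.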
